A study of Oryctolagus cuniculus with 30 samples.

Results

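Rabbits whose injured vocal folds received the hydrogel labelled VFLP (man) were compared with rabbits whose folds received type I collagen, labelled Col1. Members were taken by title: 12 of the 30 libraries of the series carry either name, 6 VFLP (man) and 6 Col1 libraries, from the left and right folds of 3 animals a side. All animals in the comparison were New Zealand white rabbits whose superficial vocal fold mucosa had been stripped on both sides, and 7 days later each fold received a 20 µL injection. VFLP (man) animals received a hydrogel that the series title traces to the lamina propria of vocal folds, and Col1 animals received collagen type I. Tissue was collected 28 days after treatment, so both groups carry the same injury, the same injected volume and the same waiting time. The labels do not spell out "man", nor "au" in the name of the second hydrogel, VFLP (au), which 3 other animals received. The remaining 6 animals were injured without an injection or were uninjured. Their libraries lay in another library batch (C) than those of the injected animals (D), except the right fold of injury only animal 1. Levels given for them below carry no batch correction, so group and batch cannot be told apart there. Age and sex were not given in the sources used here. Messenger RNA was sequenced from each fold, and the authors deposited the number of reads counted on each gene. The counts of both folds were summed, so that the animal was the unit (n = 3 a group). Levels are given as CPM, the reads of a gene scaled to a common library size, with TMM factors that correct for library composition.

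The vocal fold is covered by a stratified squamous epithelium over a soft lamina propria rich in collagen, elastin and hyaluronan, with the vocal muscle beneath and glands and ciliated airway epithelium next to it. After mucosal injury, fibroblasts of the lamina propria can turn into myofibroblasts, which make smooth muscle actin (ACTA2) and lay down collagen and fibronectin. In bulk RNA, fewer cells of a type and less RNA per cell cannot be told apart.

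VFLP (man) libraries held 23.7 to 30.5 M (megareads) on genes, and Col1 libraries held 18.1 to 31.9 M. Reads that fell on no gene made up 8.03 to 11.9% in VFLP (man) libraries and 9.68 to 15.0% in Col1 libraries. Multi-mapping reads made up 11.1 to 14.1% in VFLP (man) libraries and 12.8 to 19.3% in Col1 libraries. Markers of the labelled tissue were present. The 21 squamous epithelium genes in the count table took 2.84 to 5.18% of gene reads in VFLP (man) animals and 3.03 to 4.78% in Col1 animals. Fibroblast genes took 0.178 to 0.198% and 0.118 to 0.241%. Of the 6 animals compared, VFLP (man) animal 3 stood apart in the entry KEF51_r02, which no table used here annotates. It had 436 and 644 CPM (without TMM factors) in that animal's folds, and at most 2.65 in the other 10 libraries. Over all 5 groups, 5 animals exceeded 100 CPM in both folds, namely this one, all control animals and injury only animal 2. With VFLP (man) animal 3 left out, 1 gene passed the main test (PDCD5).

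By the main test, 0 of 17815 genes differed between VFLP (man) and Col1 (percent called 0%; edgeR quasi-likelihood test, Benjamini-Hochberg adjusted, threshold 0.05). The smallest adjusted p was 0.0567, and 10 genes lay under 0.1. At an unadjusted p under 0.05 there were 1832 genes (10.3%), of which 692 were higher (3.88%) and 1140 lower (6.4%) in VFLP (man). DESeq2, the alternative count model, called 389 genes (2.18%), 101 higher (0.567%) and 288 lower (1.62%). The median log2 fold change over all tested genes was -0.01. In 15% of genes all 3 animals of a group lay beyond all 3 of the other, 7.02% higher and 7.96% lower in VFLP (man). In 2.83% all 6 folds of a group lay beyond the 6 of the other, 1.49% higher and 1.34% lower. Every gene described below therefore missed the main threshold unless a fold or a second contrast is named, and the values are differences between these animals.

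Genes higher in VFLP (man) by smallest p showed small differences that were alike in every animal. NT5DC1, which encodes a protein of the 5'-nucleotidase domain family, had 46.6, 47.8 and 48.2 CPM in VFLP (man) animals and 27.4, 31.2 and 27.9 CPM in Col1 animals. Single folds spanned 45.5 to 49.8 CPM in VFLP (man) and 23.8 to 31.2 CPM in Col1, so the groups did not overlap in any of 12 libraries. The log2 fold change was 0.71 ± 0.12 (SE; 1.64-fold; edgeR adjusted p = 0.0816), and it lay between 0.65 and 0.90 over 18 alternatives. Its adjusted p passed in 3 of them, and ranged from 8.82e-06 (DESeq2) to 1 over the alternatives.

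ATP6V1G1, a subunit of the proton pump that acidifies endosomes and lysosomes, had 177, 169 and 173 CPM in VFLP (man) animals and 126, 122 and 134 CPM in Col1 animals. Its log2 fold change was 0.43 ± 0.10 (edgeR adjusted p = 0.205). ASAH1, the lysosomal acid ceramidase, had 134, 175 and 158 CPM in VFLP (man) animals, against 105, 95.2 and 113 CPM in Col1 animals, a log2 fold change of 0.57 ± 0.14. BLOC1S6, a subunit of a complex that builds lysosome-related organelles, had 81.7, 103 and 78.8 CPM in VFLP (man) animals and 64.5, 52.5 and 60.7 CPM in Col1 animals. The groups did not overlap for any of these genes. DOP1A, MOSPD1 and OGFRL1 were also among the 8 genes that the naming rule takes in this direction. All 8 were higher in each of the 6 VFLP (man) folds than in each of the 6 Col1 folds (1.49% of all genes). They differed by 1.35-fold to 1.64-fold, and all 8 passed DESeq2's threshold (0.567% of all genes). They were picked for their p and for animals that do not overlap, so their counts describe them and test nothing.

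**Figure D1:**
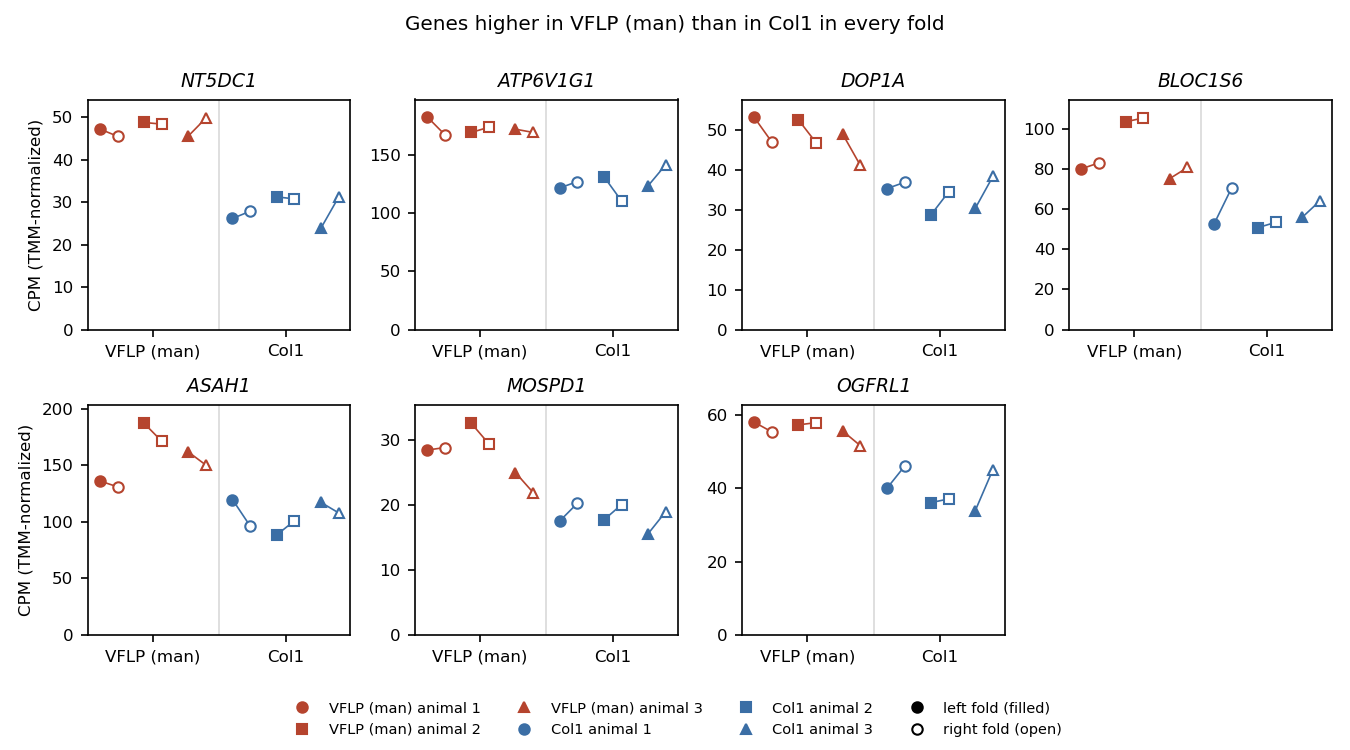
CPM (TMM-normalized, linear axis from 0) of 7 genes higher in VFLP (man) by smallest p, in the left (filled) and right (open) fold of each animal, joined by a line; VFLP (man) animals stand left of Col1 animals. In all 7 panels the lowest VFLP (man) fold lies above the highest Col1 fold, for NT5DC1 at 45.5 against 31.2 CPM.

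Lower genes showed larger differences. FAIM2, an inhibitor of Fas-mediated cell death best known from neurons, had 3.30, 3.87 and 3.41 CPM in VFLP (man) animals and 14.7, 20.5 and 14.6 CPM in Col1 animals. Its log2 fold change was -2.24 ± 0.32 (edgeR adjusted p = 0.0567), and single folds spanned 1.96 to 5.64 CPM in VFLP (man) and 14.2 to 20.6 CPM in Col1. FAIM2 averaged 4.79 CPM in VFLP (au) animals, close to the VFLP (man) level.

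FABP3, the fatty acid-binding protein of heart and skeletal muscle, had 0.915, 2.11 and 0.752 CPM in VFLP (man) animals and 11.1, 17.8 and 18.6 CPM in Col1 animals, a log2 fold change of -3.66 ± 0.52 (edgeR adjusted p = 0.0567). PFKFB1, an isoform of the enzyme that sets fructose 2,6-bisphosphate, had 0.501, 0.793 and 0.320 CPM in VFLP (man) animals and 5.81, 5.90 and 3.16 CPM in Col1 animals. PPM1J, a protein phosphatase, had 0.725, 2.06 and 0.672 CPM in VFLP (man) animals and 8.39, 10.7 and 4.98 CPM in Col1 animals. These 3 genes were far higher in uninjured controls, which averaged 173, 57.1 and 79.7 CPM for FABP3, PFKFB1 and PPM1J. In single folds the groups overlapped for all 3, and the right folds of the Col1 animals were lower than their left ones. FABP3, for example, had 4.00, 12.2 and 2.41 CPM in the right folds of Col1 animals and 24.0, 23.0 and 36.3 CPM in their left folds. RELT, a receptor of the tumour necrosis factor family, and VEPH1 were lower by 2.04 and 2.15 on the log2 scale. All 8 lower genes of the naming rule passed DESeq2's threshold (1.62% of all genes), by 3.81-fold to 12.7-fold. FAIM2, HBA and MYL9, 3 of the 8, were separate in all 12 libraries (1.34% of all genes). These 8 were also picked for their p and for animals that do not overlap, so the counts test nothing.

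**Figure D2:**
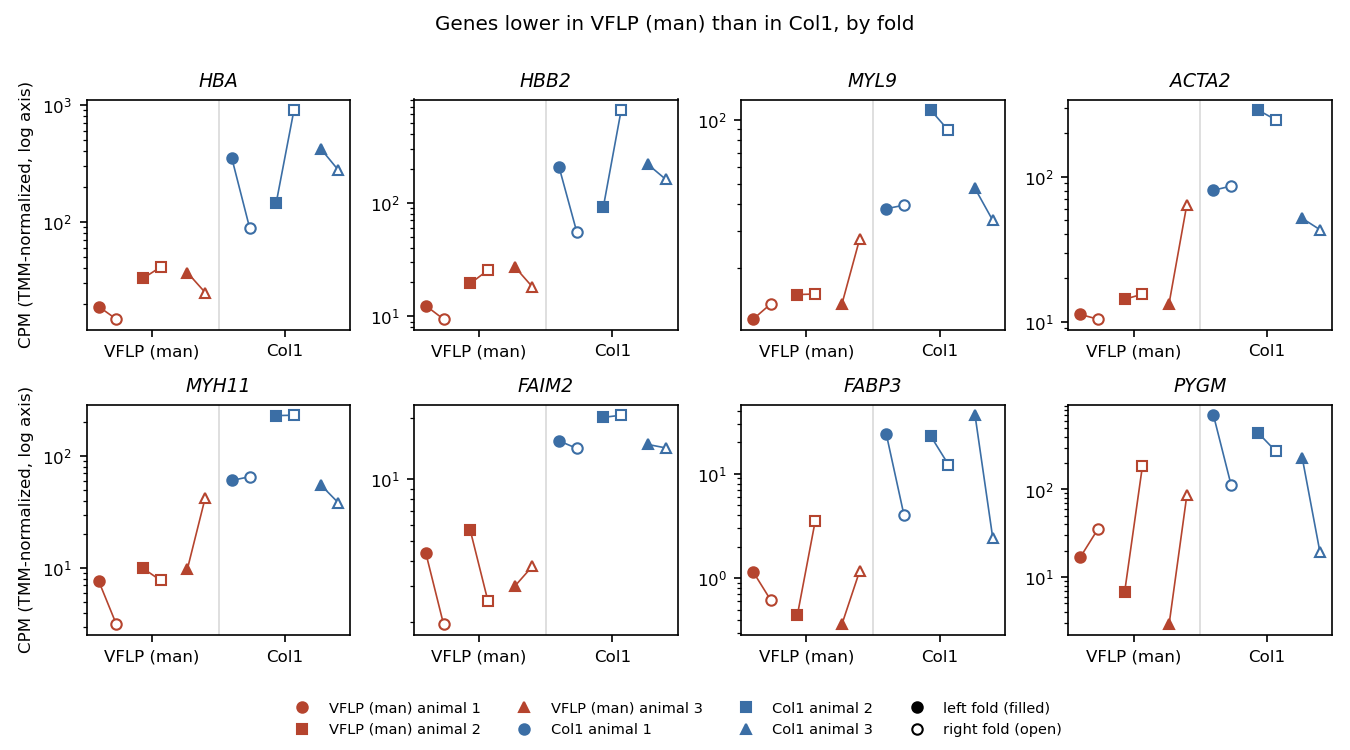
CPM (TMM-normalized, log axis) of 8 genes lower in VFLP (man), in the left (filled) and right (open) fold of each animal; VFLP (man) animals stand left of Col1 animals. HBA, HBB2, MYL9 and FAIM2 are separate in every fold, whereas the skeletal muscle gene PYGM is low in the left folds of all 3 VFLP (man) animals and in the right fold of Col1 animal 3.

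Red cell genes were lower in VFLP (man) in every animal. Haemoglobin carries oxygen, and its RNA is made while red cells mature and is still present in circulating reticulocytes. HBA, the alpha chain of haemoglobin, had 17.1, 36.8 and 31.5 CPM in VFLP (man) animals and 182, 522 and 348 CPM in Col1 animals. The log2 fold change was -3.64 ± 0.59 (12.4-fold lower; edgeR adjusted p = 0.0816). The highest VFLP (man) fold had 41.1 CPM and the lowest Col1 fold 88.9 CPM.

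HBB2, a beta chain gene, had 11.1, 22.4 and 23.3 CPM in VFLP (man) animals and 109, 373 and 190 CPM in Col1 animals. ALAS2, which starts haem synthesis in red cell precursors, had 0.690, 1.20 and 1.15 CPM in VFLP (man) animals and 5.45, 18.5 and 9.75 CPM in Col1 animals. All 6 tested members of the list, EPB42 and HEMGN included, were lower in all 3 VFLP (man) animals, with a median log2 fold change of -3.61, against 7.96% of all genes lower in this way, and 5 of the 6 were separate in all 12 libraries (1.34% of all genes). DESeq2 called 3 of the 6 (1.62% of all genes). The list took 0.00317, 0.00705 and 0.00627% of gene reads in VFLP (man) animals and 0.0310, 0.0895 and 0.0593% in Col1 animals. Groups did not overlap, and an exact two-sided permutation test gave p = 0.1, the smallest that 3 animals against 3 allow (0.557 after adjustment over the lists). The share averaged 0.0119% in VFLP (au), 0.0212% in injury only and 0.0301% in control animals, so the Col1 mean was the highest of the 5 groups. Control and most injury only libraries were of the other library batch, and the shares were not corrected for it. How much blood each biopsy held was not measured, and its part in the difference was not tested. Globin genes have near-identical copies, and reads that map to several places are not counted, so the level of each copy is uncertain.

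Contractile genes of smooth muscle and myofibroblasts were lower in VFLP (man). MYL9, the regulatory light chain of smooth muscle myosin, had 12.5, 14.8 and 20.4 CPM in VFLP (man) animals and 39.2, 101 and 40.4 CPM in Col1 animals, a log2 fold change of -1.93 ± 0.35 (3.81-fold lower; edgeR adjusted p = 0.175). ACTA2, the actin of smooth muscle and myofibroblasts, had 10.9, 14.7 and 38.0 CPM in VFLP (man) animals and 84.8, 271 and 47.5 CPM in Col1 animals (log2 fold change -2.67 ± 0.60, 6.37-fold lower; edgeR adjusted p = 0.205). The animals did not overlap, but the right fold of VFLP (man) animal 3, at 64.2 CPM, lay above both folds of Col1 animal 3, at 51.7 and 43.1 CPM.

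MYH11, the smooth muscle myosin heavy chain, had 5.68, 8.60 and 25.5 CPM in VFLP (man) animals and 63.8, 231 and 46.6 CPM in Col1 animals. ACTG2, the enteric smooth muscle actin, had 0.449, 0.458 and 1.10 CPM in VFLP (man) animals and 6.29, 17.8 and 3.44 CPM in Col1 animals. Col1 animal 2 was the high end for all of these genes. Without it, the log2 fold change of ACTA2 was -1.65 and that of MYH11 was -2.06.

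Of 20 tested members of this list, 12 were lower in all 3 VFLP (man) animals (7.96% of all genes), 0 were higher in all 3, and the median log2 fold change was -1.76. DESeq2 called 10 lower (1.62% of all genes). The median was -3.23 in left folds, where edgeR called 10. In right folds the median was -0.70, edgeR called 0 and 6 of 20 members were positive. With the muscle level as a covariate the median was -0.85. The muscle level was the mean log2 CPM of the skeletal muscle list, fitted over all 5 groups, uninjured controls included. As a share of gene reads, the contractile list differed by -0.275 percentage points in left folds and by 0.023 in right folds. That share is weighted to genes with many reads. TPM1 had 75082 reads over VFLP (man) and 81237 over Col1 animals, DES 31813 and 33903, and ACTA2 3967 and 18083. ACTG2, MYL9, CALD1, LMOD1 and MYOCD, the last a co-activator that drives the smooth muscle programme, were separate in all 12 libraries (1.34% of all genes). ACTA2 averaged 32.0 CPM in VFLP (au), 115 CPM in injury only and 64.2 CPM in control animals. Glands carry contractile cells of their own, and SOX10, a factor of glands and Schwann cells, had 0.0690, 1.62 and 4.99 CPM in VFLP (man) animals and 18.1, 64.3 and 0.776 CPM in Col1 animals. Secretory genes took 0.573, 2.46 and 1.01% of gene reads in VFLP (man) animals and 2.56, 4.67 and 1.41% in Col1 animals, again highest in Col1 animal 2. This share too is weighted to genes with many reads. SCGB1A1 had 848216 reads in VFLP (man) animal 2 and 280347 in Col1 animal 3, and DMBT1 had 740850 and 1238390 in Col1 animals 1 and 2. The part of glands in the contractile difference was not tested.

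Skeletal muscle genes were far lower in VFLP (man) in left folds, whereas in right folds the groups overlapped. All 24 tested members had a negative log2 fold change with the folds summed (median -1.73), 9 were separate (7.96% of all genes), and DESeq2 called 8 lower (1.62% of all genes). PYGM, the glycogen phosphorylase of muscle, had 16.8, 6.81 and 2.88 CPM in the left folds of VFLP (man) animals and 704, 446 and 229 CPM in the left folds of Col1 animals. Its right folds held 35.5, 185 and 85.7 CPM in VFLP (man) animals and 111, 275 and 19.1 CPM in Col1 animals. Left folds were thus far apart, and right folds overlapped.

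In a fit of left folds alone, 327 of 16601 genes passed (1.97%), 11 higher (0.0663%) and 316 lower (1.9%). All 24 skeletal muscle genes were negative there, and 21 of them passed, with a list median of -5.36. In right folds alone 0 of 16576 genes passed (795 with an unadjusted p under 0.05; DESeq2 and limma were not run by fold), and the list median was 0.08, with 11 members negative and 13 positive. PYGM fell by 5.71 on the log2 scale in left folds (edgeR adjusted p = 0.0142) and differed by -0.44 in right folds. Of the 327 genes, 136 that fell in left folds had the opposite sign in right folds, and 33 had an unadjusted p under 0.05 in the same direction there. When the difference between folds was tested itself, in 18 libraries with the animal as a block, 0 of 16757 genes passed by edgeR (1690 with an unadjusted p under 0.05; edgeR was the single tool used).

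The skeletal muscle list took 0.0507, 0.0299 and 0.00752% of gene reads in the left folds of VFLP (man) animals and 1.48, 1.01 and 0.563% in the left folds of Col1 animals. In right folds it took 0.0881, 0.832 and 0.424% in VFLP (man) animals and 0.237, 0.645 and 0.0590% in Col1 animals. In each VFLP (man) animal the right fold held more muscle RNA than the left, and in each Col1 animal it held less. With folds summed, the shares were 0.0674, 0.465 and 0.210% in VFLP (man) animals and 0.686, 0.823 and 0.300% in Col1 animals, which overlap (exact permutation test, two-sided, p = 0.2). Uninjured controls averaged 5.71%.

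DES, the intermediate filament of smooth and striated muscle, is a member of the contractile list described here because of its values. It had 24.1, 14.7 and 5.34 CPM in the left folds of VFLP (man) animals and 520, 484 and 211 CPM in those of Col1 animals. Its right folds had 53.1, 456 and 429 CPM in VFLP (man) animals and 82.1, 274 and 18.6 CPM in Col1 animals. The log2 fold change of DES was -4.80 in left folds and 1.29 in right folds. MYL9 and ACTA2 kept their sign, with -2.31 and -3.46 in left folds and -1.55 and -2.08 in right folds, as did HBA with -3.39 and -4.01. FABP3 kept its sign too, but its difference was -5.41 in left folds and -1.82 in right folds. The superfast myosin MYH13 and the slow light chain MYL3 were lower in both, by 7.81 and 5.88 in left folds and by 3.28 and 4.09 in right folds. Myosin heavy chains share much sequence, so reads may be split among them. With the muscle level as a covariate, HBA differed by -2.44, MYL9 by -1.24 and ACTA2 by -1.21 on the log2 scale. PYGM differed by -0.57, but it is among the genes that make up the covariate, so its shrinkage was built in.

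**Figure D3:**
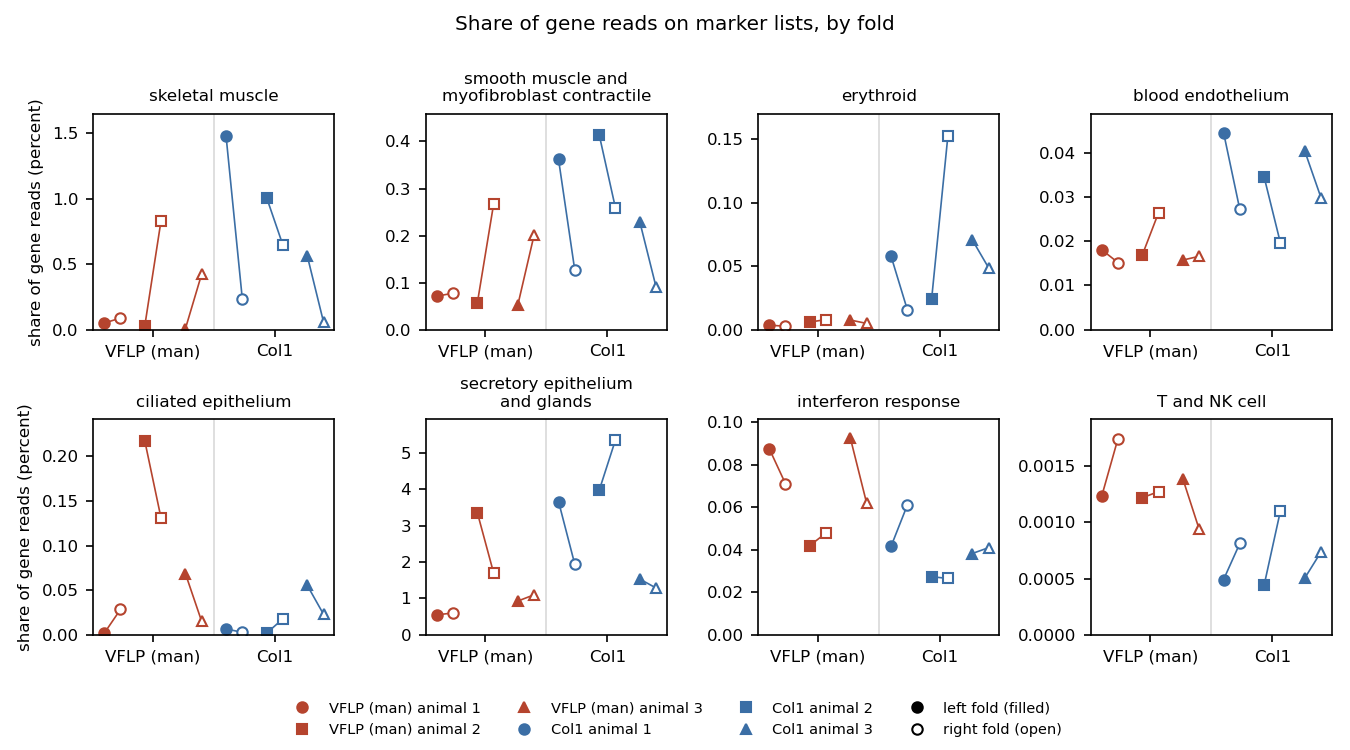
Share of gene reads (percent, linear axis from 0) on 8 marker lists in the left (filled) and right (open) fold of each animal, joined by a line; VFLP (man) animals stand left of Col1 animals. Skeletal muscle lines slope up in VFLP (man) and down in Col1, whereas erythroid shares are low in all 6 VFLP (man) folds.

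Vessel genes were lower in VFLP (man) by modest amounts. Of 20 tested genes of blood endothelium, 16 were lower in all 3 VFLP (man) animals (7.96% of all genes), 0 were higher in all 3, and the median log2 fold change was -0.95. ACKR1, the chemokine receptor of venules, had 10.6, 10.04 and 9.92 CPM in VFLP (man) animals and 31.8, 21.7 and 29.0 CPM in Col1 animals (log2 fold change -1.44 ± 0.46; edgeR adjusted p = 0.303). PECAM1, the junction molecule CD31, had 22.1, 22.8 and 14.2 CPM in VFLP (man) animals and 38.0, 29.7 and 34.3 CPM in Col1 animals. CD36, a fatty acid transporter of capillaries and muscle, had 1.38, 1.97 and 2.94 CPM in VFLP (man) animals and 4.78, 13.7 and 7.72 CPM in Col1 animals. CA4, a carbonic anhydrase of capillaries, had 0 reads over the VFLP (man) animals and 26 over the Col1 animals, at least 10.3-fold lower when 3 counts over the group stand for 0. With CA4 at that bound the list median was unchanged at -0.95. DESeq2 called 2 of the 20, CA4 and CD36 (1.62% of all genes). In left folds alone 1 of 20 passed by edgeR (1.97% of all genes) and in right folds 0 of 20, with list medians of -1.31 and -0.57. In right folds 1 of 20 was separate and lower, against 4.98% of all genes there, so separation was at the level of all genes.

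The endothelial share was 0.0168, 0.0221 and 0.0161% in VFLP (man) animals and 0.0334, 0.0269 and 0.0348% in Col1 animals, without overlap (exact permutation test, two-sided, p = 0.1, the smallest possible). In control animals it averaged 0.0754%. Among 9 tested pericyte genes, 3 were separate and lower (7.96% of all genes). MCAM (CD146) was among them, with 5.28, 5.08 and 4.77 CPM in VFLP (man) and 12.01, 21.2 and 11.5 CPM in Col1. RGS5 and HIGD1B were the others, HIGD1B with 24 reads over VFLP (man) animals and 33 over Col1 animals. The list median was -0.64, but -0.18 in right folds and -0.44 to -0.30 on leaving out each animal. The basement membrane collagens COL4A1 and COL4A2 were also separate and lower, COL4A2 with 12.3, 12.2 and 11.3 CPM in VFLP (man) animals and 19.5, 24.0 and 24.9 CPM in Col1 animals.

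Lymphatic endothelium had a positive median. PROX1, its defining transcription factor, had 4.54, 7.93 and 3.39 CPM in VFLP (man) animals and 2.54, 1.47 and 1.17 CPM in Col1 animals (log2 fold change 1.60 ± 0.56; edgeR adjusted p = 0.344). CCL21, the chemokine of lymphatic vessels, had 19.2, 26.8 and 7.97 CPM in VFLP (man) animals and 9.35, 7.65 and 2.07 CPM in Col1 animals, which overlap. The median over 8 genes was 0.95, and 1 of 8 was separate (7.02% of all genes). Whether blood and lymphatic vessel genes differ in direction was not tested.

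Of 16 cartilage genes 4 were separate, all lower (7.96% of all genes), and the median was -1.45, or -0.16 with the muscle level as a covariate. CLEC3A, a lectin of cartilage, had 0.121, 0.290 and 0.192 CPM in VFLP (man) animals and 2.39, 2.19 and 0.796 CPM in Col1 animals, and CHAD, a matrix protein of cartilage, had 0.949, 0.900 and 0.928 CPM in VFLP (man) animals and 2.27, 2.94 and 3.54 CPM in Col1 animals. SNORC, the third by p, was at or under 0.265 CPM in all 6 animals and overlapped. Of 12 nerve and Schwann cell genes, MBP and NCAM1 were separate and higher (7.02% of all genes). S100B was separate and lower (7.96% of all genes), and the list median was -0.06. S100B had 0.432, 0.900 and 1.20 CPM in VFLP (man) animals and 2.96, 5.34 and 1.85 CPM in Col1 animals. Among 12 genes of fat and lipid handling, ACLY, which makes acetyl-CoA for lipid synthesis, had 62.1, 35.8 and 38.1 CPM in VFLP (man) animals and 9.14, 7.36 and 8.497 CPM in Col1 animals (log2 fold change 2.43 ± 0.85; edgeR adjusted p = 0.346). ACLY was separate in all 12 libraries. Lipoprotein lipase (LPL) was separate and lower, with 3.30, 6.48 and 0.848 CPM in VFLP (man) animals and 20.8, 27.1 and 26.3 CPM in Col1 animals, and so was G0S2, an inhibitor of fat breakdown. The list median was -0.11.

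Of 10 matrix genes followed as measures of scar, 8 had a positive and 2 a negative log2 fold change (median 0.35), and the sign of several differed between folds. COL1A1, the main collagen of scar, had 120, 40.8 and 39.3 CPM in VFLP (man) animals and 60.2, 30.5 and 68.4 CPM in Col1 animals (log2 fold change 0.33 ± 0.50; edgeR adjusted p = 0.873). VFLP (man) animal 1 alone was high, through its right fold at 207 CPM against 49.3 CPM in its left, and without that animal the value was -0.42. COL3A1 had 273, 147 and 157 CPM in VFLP (man) animals and 136, 88.7 and 196 CPM in Col1 animals. Fibronectin (FN1) had 154, 97.7 and 58.2 CPM in VFLP (man) animals and 71.4, 52.2 and 92.1 CPM in Col1 animals. For all 3 genes the groups overlapped.

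POSTN, the matricellular protein periostin, had 102, 81.7 and 58.4 CPM in VFLP (man) animals and 42.0, 33.3 and 66.1 CPM in Col1 animals (log2 fold change 0.77 ± 0.28; edgeR adjusted p = 0.373). MMP1, a collagenase, had 6.11, 5.002 and 7.87 CPM in VFLP (man) animals and 3.38, 1.71 and 2.15 CPM in Col1 animals, without overlap (1.38 ± 0.86; edgeR adjusted p = 0.611). ELN, the gene of elastin, differed by 0.37 ± 0.38, LOX, a collagen cross-linking enzyme, by 0.07 ± 0.39, HAS2, a hyaluronan synthase, by 0.03 ± 0.47, and TGFB1, a driver of fibrosis, by -0.26 ± 0.28. Each of these 4 overlapped between groups. Of the 10 followed genes, ACTA2 alone was separate and lower (7.96% of all genes) and MMP1 alone separate and higher (7.02%). In left folds 7 of the 10 were negative, ACTA2 among them. The median of the 10 genes was -0.37 in left folds and 1.01 in right folds.

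**Figure D4:**
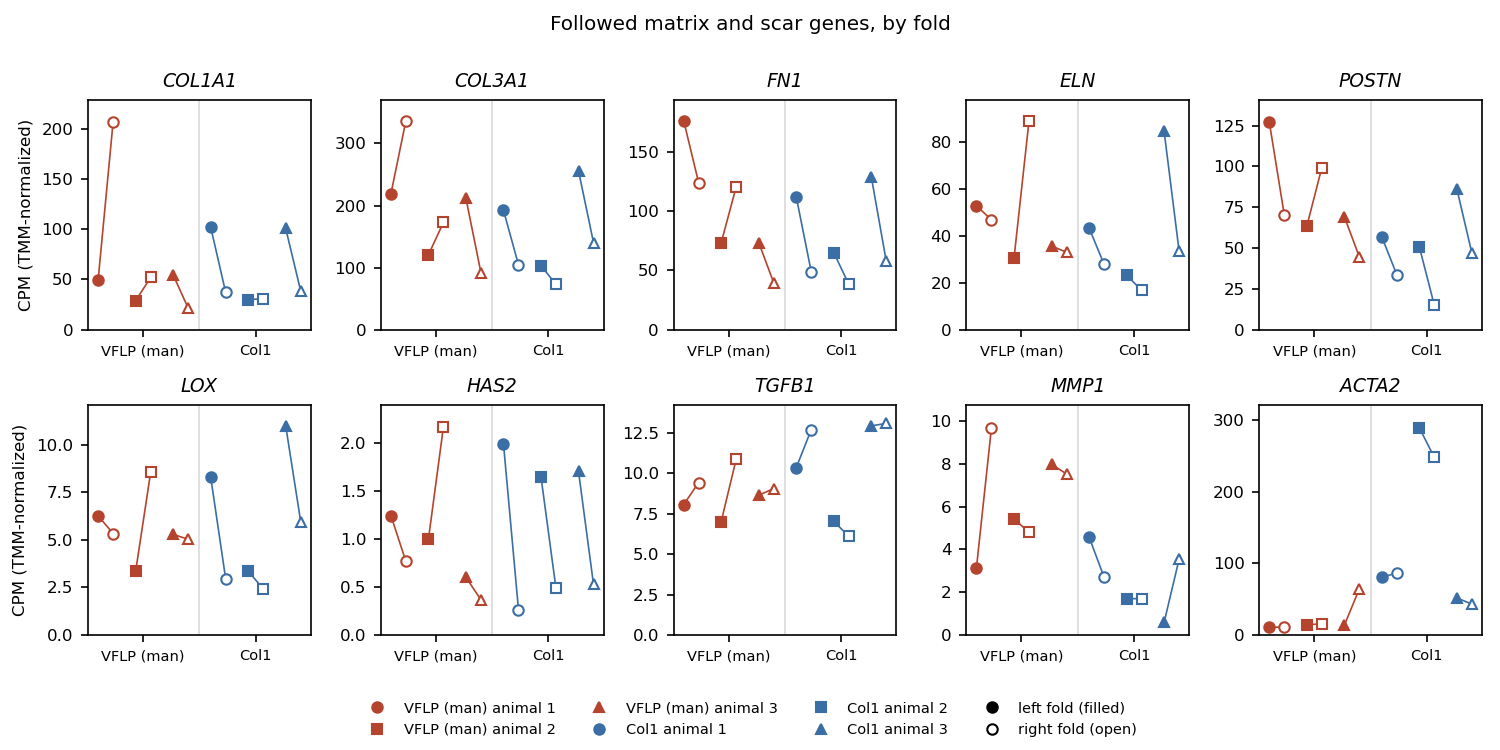
CPM (TMM-normalized, linear axis from 0) of the 10 followed matrix and scar genes in the left (filled) and right (open) fold of each animal; VFLP (man) animals stand left of Col1 animals. COL1A1 is high in the right fold of VFLP (man) animal 1 alone, and ACTA2 is high in both folds of Col1 animal 2.

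The median was 0.34 over 9 fibrillar collagens, but -0.47 in left folds, 0.90 in right folds and -0.42 without VFLP (man) animal 1. It was -0.10 over 15 other collagens, -0.31 over 18 genes of collagen processing, -0.29 over 16 of elastic fibres, -0.16 over 19 of proteoglycans and hyaluronan, -0.07 over 15 matricellular genes and -0.03 over 22 proteases and inhibitors. The fibroblast list had a median of -0.45 over 23 genes, with 3 separate and lower (7.96% of all genes) and 1 separate and higher (7.02%). SFRP2, a secreted Wnt modulator of fibroblasts, had 4.04, 5.03 and 5.57 CPM in VFLP (man) animals and 16.4, 6.09 and 16.8 CPM in Col1 animals. CD34 had 29.1, 28.2 and 26.3 CPM in VFLP (man) animals and 44.2, 46.1 and 80.6 CPM in Col1 animals, and THY1 overlapped. FBLN2, a protein of elastic fibres and basement membranes, had 2.99, 3.80 and 3.01 CPM in VFLP (man) animals and 10.7, 8.9996 and 6.51 CPM in Col1 animals (log2 fold change -1.43 ± 0.33; edgeR adjusted p = 0.205). LOXL4, a relative of LOX, had 2.78, 4.51 and 3.54 CPM in VFLP (man) animals and 14.6, 8.30 and 7.01 CPM in Col1 animals. CEMIP, which starts hyaluronan breakdown, was separate and lower, and ASPN and FMOD, small leucine-rich proteoglycans, overlapped. THBS1 had 13.6, 20.6 and 42.2 CPM in VFLP (man) animals and 85.5, 251 and 36.7 CPM in Col1 animals, highest in Col1 animal 2. SPARCL1 was separate and lower.

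Ciliated epithelium had the highest median of the 38 lists, 1.86, and all 24 tested members were positive, in left folds and in right folds too. The median was 0.66 without VFLP (man) animal 2 and 3.42 without Col1 animal 3. DEUP1, which builds centrioles in multiciliated cells, had 2.45, 6.53 and 2.704 CPM in VFLP (man) animals and 0.172, 0.144 and 0.438 CPM in Col1 animals (log2 fold change 3.91 ± 1.17; edgeR adjusted p = 0.278). MCIDAS and CCNO, which start the ciliated programme, were likewise separate, MCIDAS with 2.14, 2.38 and 1.66 CPM in VFLP (man) animals and 1.05, 0.337 and 0.915 CPM in Col1 animals. The other 21 overlapped. FOXJ1, the master factor of motile cilia, had 8.60, 85.7 and 31.5 CPM in VFLP (man) animals and 2.71, 4.84 and 24.0 CPM in Col1 animals, and CFAP43, a protein of the ciliary shaft, had 10.2, 116 and 34.7 CPM in VFLP (man) animals and 4.86, 8.30 and 17.4 CPM in Col1 animals. VFLP (man) animal 2 was the highest. FOXJ1 ranged from 0.685 to 105 CPM over VFLP (man) folds and from 0.330 to 33.4 CPM over Col1 folds. Only 3 of 24 were separate (7.02% of all genes), 18 without Col1 animal 3 (13% of all genes) and 16 without VFLP (man) animal 1 (14.3% of all genes).

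Of 22 secretory genes 4 were separate and lower (7.96% of all genes) and 1 higher (7.02%), with a median of -0.50. DMBT1, a mucosal defence protein, had 426, 1334 and 1264 CPM in VFLP (man) animals and 14163, 29799 and 232 CPM in Col1 animals. Col1 animal 3 was thus the lowest of the 6 animals. XBP1, a secretory factor, had 287, 248 and 254 CPM in VFLP (man) animals and 333, 471 and 314 CPM in Col1 animals, and AQP5, a water channel, was separate and lower as well. The median was -0.19 over 19 genes of differentiated squamous epithelium, with 0 separate. Without VFLP (man) animal 1, 10 of the 19 were separate and lower (14.6% of all genes in that setting). Over 14 genes of basal epithelium the median was -0.19, with 2 separate and lower (7.96% of all genes).

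Immune lists had medians on both sides of 0. Of 14 T and NK cell genes, 6 were separate and higher (7.02% of all genes) and 0 lower, with a median of 0.79. In left folds 7 of 14 were separate and higher, against 9.99% of all genes there, with a median of 1.27 over 9 tested. In right folds 2 of 14 were, against 5.35% of all genes there. The right-fold median was 0.50 over 13 tested, of which 4 were negative. The T cell kinase LCK had 2.97, 2.47 and 2.69 CPM in VFLP (man) animals and 1.91, 1.59 and 1.15 CPM in Col1 animals, and was separate in all 12 libraries (log2 fold change 0.80 ± 0.26; edgeR adjusted p = 0.316). CD247, the T cell receptor zeta chain, had 0.708, 1.45 and 0.656 CPM in VFLP (man) animals and 0.249, 0.385 and 0.199 CPM in Col1 animals. IL2RB, CD2 and FOXP3 were also separate and higher, and CD3E, a defining chain of the receptor, overlapped. These are low levels, with 502 LCK reads over VFLP (man) animals and 224 over Col1 animals.

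CTSS, the lysosomal protease that prepares MHC class II for peptides, had 49.4, 57.3 and 35.9 CPM in VFLP (man) animals and 28.3, 23.9 and 13.8 CPM in Col1 animals (log2 fold change 1.11 ± 0.34; edgeR adjusted p = 0.288). With CTSS, 4 of 15 antigen presentation genes were separate and higher (7.02% of all genes), CD40 among them, and PSMB8 overlapped. In right folds alone 1 of 15 was separate and higher, against 5.35% of all genes there. Of 20 interferon response genes 19 were positive, with a median of 0.69, but 1 was separate (7.02% of all genes). It was HERC6, an interferon-induced ubiquitin ligase family member, at 94.4, 48.4 and 84.9 CPM in VFLP (man) animals and 37.7, 25.8 and 27.2 CPM in Col1 animals. HERC6 rose in left folds (log2 fold change 1.82; edgeR adjusted p = 0.0483). IFI44L and HERC5 overlapped. VFLP (man) animal 2 was low for the list, at 0.0453% of gene reads against 0.0803 and 0.0776% in VFLP (man) animals 1 and 3, and Col1 animals held 0.0540, 0.0270 and 0.0397%. Without VFLP (man) animal 2, 16 of 20 were separate, against 10.6% of all genes in that setting. Medians were 0.15 over 21 macrophage genes, 0.06 over 17 B and plasma cell genes (-0.64 to 0.99 on leaving out each animal), 1.25 over 10 neutrophil and mast cell genes, -0.10 over 19 cytokines, 0.17 over 12 complement genes and -0.20 over 8 genes of osteoclasts and giant cells. The neutrophil median rested on VFLP (man) animal 1, and was -0.31 without it.

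All 22 genes of oxidative phosphorylation were negative, with a median of -0.26, and 10 were separate and lower (7.96% of all genes). In left folds alone 12 of 22 were separate and lower, against 11% of all genes there, with a median of -0.40. In right folds alone 1 of 22 was, against 4.98% of all genes there, so separation was at the level of all genes. The median there was -0.12. With the muscle level as a covariate the median was 0.02. ATP5MC1, a subunit of ATP synthase, had 63.4, 48.0 and 62.7 CPM in VFLP (man) animals and 89.4, 104 and 82.1 CPM in Col1 animals, and NDUFS7 and NDUFA1 were also separate. Uninjured control tissue, which holds the most muscle RNA and lies in the other library batch, averaged 406 CPM of ATP5MC1. The part of muscle RNA in the lower values of this list was not tested. Of 20 genes of glycolysis and hypoxia 5 were separate and lower (7.96% of all genes), with a median of -0.23. CA9, a hypoxia-induced carbonic anhydrase, had 0.104, 0.137 and 0.0800 CPM in VFLP (man) animals and 0.746, 0.818 and 1.41 CPM in Col1 animals (log2 fold change -3.19 ± 0.55; edgeR adjusted p = 0.116). VEGFA, the vessel growth factor, had 45.3, 51.9 and 32.1 CPM in VFLP (man) animals and 76.3, 59.5 and 91.0 CPM in Col1 animals. GAPDH had 1030, 1013 and 846 CPM in VFLP (man) animals and 2227, 2512 and 1161 CPM in Col1 animals. The median was 0.09 over 24 genes of proliferation, -0.59 without VFLP (man) animal 1, -0.13 without Col1 animal 3 and -1.33 with the muscle level as a covariate. Other medians were -0.23 over 18 immediate early and heat shock genes, -0.26 over 17 of the unfolded protein response, -0.16 over 25 of Wnt signalling and 0.03 over 23 of TGF-beta and BMP signalling. Of a list of 8 sex-linked genes, 0 carried a symbol in the count table.

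**Figure D5:**
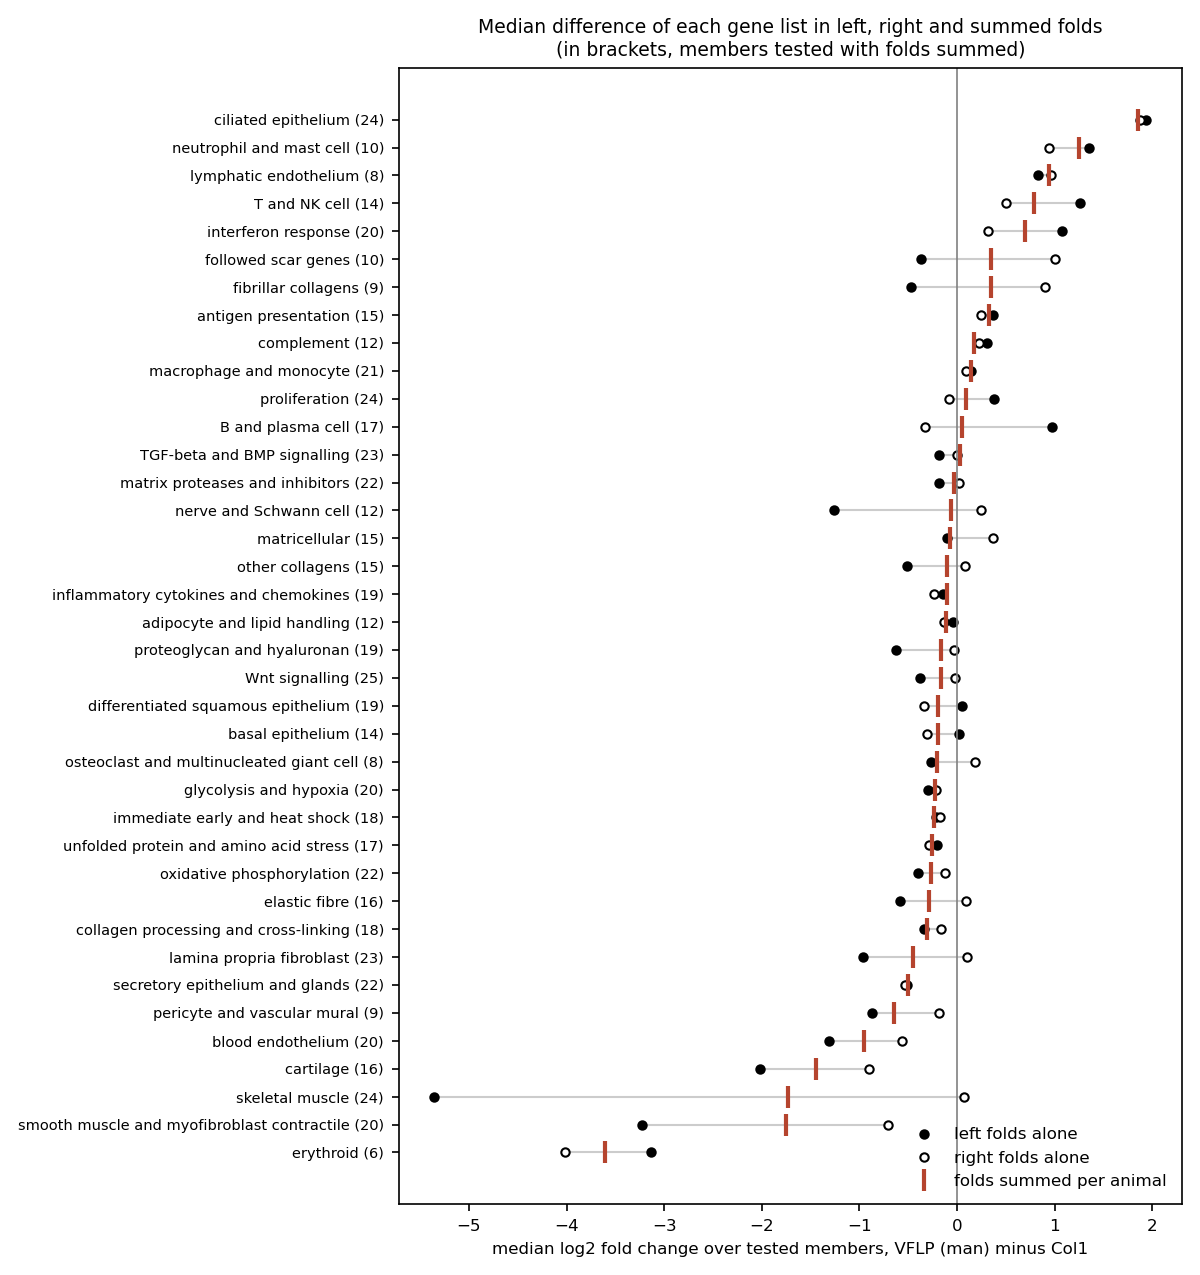
Median log2 fold change, VFLP (man) minus Col1, over the tested members of each of 38 gene lists: with folds summed (red bar), in left folds (filled) and in right folds (open). Erythroid genes lie at -3.61 and ciliated genes at 1.86, with the same sign in both folds, whereas skeletal muscle is at -5.36 in left folds and 0.08 in right folds.

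VFLP (man) was also set against the second hydrogel, VFLP (au), in the same fit. By edgeR 9 genes differed (0.0505%; 1489 with an unadjusted p under 0.05, 8.36%), all lower in VFLP (man), and all 9 also had an unadjusted p under 0.05 against Col1. FABP3 fell by 3.78, PFKFB1 by 3.77, PPM1J by 3.28, CA9 by 3.65 and RELT by 2.78 on the log2 scale (edgeR adjusted p = 0.0296, 0.0296, 0.03, 0.0438 and 0.0196). AK4, a mitochondrial adenylate kinase, and SLC25A34, a mitochondrial carrier, fell too. Between VFLP (au) and Col1, 0 of 17815 genes passed by edgeR (829 with an unadjusted p under 0.05, 4.65%; DESeq2 and limma were not applied to it). The contrasts share animals, so their overlap is no independent result. Side by side, HBA averaged 28.4 ± 10.2 CPM in VFLP (man), 69.5 ± 13.3 CPM in VFLP (au) and 350 ± 170 CPM in Col1 (SD, n = 3 each). MYL9 averaged 15.9 ± 4.04 CPM in VFLP (man), 24.5 ± 3.75 CPM in VFLP (au) and 60.2 ± 35.3 CPM in Col1. FABP3 averaged 1.26 ± 0.738 CPM in VFLP (man), 17.2 ± 8.82 CPM in VFLP (au) and 15.8 ± 4.11 CPM in Col1. NT5DC1 averaged 47.5 ± 0.805 CPM in VFLP (man), 38.9 ± 2.73 CPM in VFLP (au) and 28.8 ± 2.08 CPM in Col1. For HBA and MYL9 the VFLP (au) mean was nearer to VFLP (man), for FABP3 it was nearer to Col1, and for NT5DC1 it lay between them.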

How the data were processed

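Vocal fold RNA was sequenced from 30 libraries. Per the labels' protocols, 100 ng of RNA (integrity number above 7) went into KAPA mRNA HyperPrep libraries, amplified over 15 cycles and read as pairs of 100 bases. The authors deposited raw counts per gene; STAR 2.7.10b is named in the submitters' processing notes. Neither the genome build nor the gene annotation is given in the sources used here. The count column for reads of the reverse strand was used, and the entries that name no gene (23.2 to 36.6% of reads in the 12 libraries) were left out. Folds of an animal were summed. The main test was edgeR 4.0.16 (R 4.3.3; quasi-likelihood, TMM, filterByExpr at a minimum count of 10) on 16 units of all 5 groups with library batch as a covariate; 1 injury only animal was divided by batch. Both groups compared lie in the same batch. In left folds alone batch followed the groups, so that fit held no batch term, whereas the fit of right folds alone did. P-values were adjusted by Benjamini-Hochberg over all genes, and SE is the absolute log2 fold change over the square root of F, an approximation. Alternatives were DESeq2 1.42.0, limma 3.58.1 voom with duplicateCorrelation, DESeq2 size factors, no filter, the 6 or the 9 injected animals alone, a replicate block, left or right folds alone, unstranded counts, the muscle level as a covariate and each animal left out; leaving out 37 KEF51 entries, counts of separated members by fold and the test of the folds' difference were added after the data were seen.

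Per-animal separation and list medians are descriptions. Members, 39 gene lists (634 of 719 genes found in the table) and tests were chosen with earlier results of these data known. Genes named are 8 per direction by smallest p with a symbol, at least 1 CPM and animals that do not overlap (none passed the threshold), the 3 of smallest p of each list described, and 10 followed genes; others were named after their values were seen, and a few genes are not reported here. The 2 folds of an animal had a median correlation of log2 CPM of 0.969 (6 animals), against 0.938 within groups across animals and 0.930 across groups. Per the labels, replicates are separate animals. Depth limits genes with few reads; the reads carry no molecular identifiers, so the bound for a count of 0 covers counting error only.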

Additional observations from a re-analysis of the deposited data

Results flagged for a closer look

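In 4 of 38 marker lists the share of gene reads differed between the right and the left fold in opposite directions in the groups: it moved one way in every VFLP (man) animal and the other way in every Col1 animal. For skeletal muscle, right minus left was 0.42 percentage points on average in VFLP (man) animals and -0.70 in Col1 animals, a difference of 1.121. For the contractile list, which also holds genes of striated muscle such as DES, the difference was 0.298, with 0.12 in VFLP (man) and -0.18 in Col1. Of its 20 members, 14 were lower in both folds, MYL9 and ACTA2 among them, whereas DES changed sign. For glycolysis and hypoxia the difference was 0.3319, and for nerve and Schwann cells 0.003423. An exact two-sided permutation test over the 6 animals gave p = 0.1 for each, the smallest possible for 3 against 3, with no adjustment over the 38 lists. The lists were picked for opposite signs in all 6 animals, which fixes this p in advance, so it tests nothing. By gene, 20 of 24 skeletal muscle members had an unadjusted p under 0.05 for the difference between folds in edgeR, and 0 passed after adjustment. Which side of an animal was handled first is not given in the sources used here, and the part of sampling in these values was not tested.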

How the results depend on the processing

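By edgeR 0 genes passed with DESeq2 size factors, with no filter, in right folds, with unstranded counts, with the muscle covariate and without the KEF51 entries (795 to 2487 with an unadjusted p under 0.05). DESeq2 called 389 (101 higher, 288 lower), left folds alone 327 (11 and 316), voom 5 (1 and 4), the 6 animals alone 2 (both higher), the 9 injected animals 1 (lower) and the replicate block 1 (HBA, lower). Same-numbered animals correlated in their deviations at 0.15, 0.02 and -0.09, so the block pairs nothing. Leaving out each animal gave 0 to 4 calls (0 to 1 higher, 0 to 3 lower). Right folds had 795 genes at an unadjusted p under 0.05. Under the alternatives 1540 fold changes kept direction and side of the threshold, 68 passed it and 19 reversed, and 639 list medians and 164 shares moved by less than the spread, against 45 and 7 that moved more; the cause was not tested. In left folds the list medians moved to 1.265 (T and NK), -1.308 (blood endothelium), -0.4671 (fibrillar collagens), -0.3652 (followed genes), -0.9629 (fibroblast), -1.261 (nerve), -0.5145 (other collagens), -0.6269 (proteoglycans), -5.357 (skeletal muscle) and -3.232 (contractile), and shares moved to 0.0007965, -0.02286, -0.9865 and -0.275 percentage points for T and NK, endothelium, skeletal muscle and contractile genes. In right folds medians were -0.5663 (endothelium), 1.009 (followed), 0.1046 (fibroblast), 0.3697 (matricellular), 0.1828 (osteoclast), -0.1845 (pericyte), 0.07639 (skeletal) and -0.7026 (contractile), and shares -0.006115, 0.1344 and 0.02296 (endothelium, skeletal, contractile). With the muscle covariate medians were -0.8244 (basal), -0.5258 (endothelium), -0.1632 (cartilage), -2.272 (erythroid), -0.292 (followed) and -0.3488 (proteases). Further medians with it were 0.05094 (neutrophil), -0.5714 (other collagens), 0.02171 (oxidative phosphorylation), -1.334 (proliferation), -0.04606 (skeletal) and -0.8523 (contractile). The skeletal list itself made the covariate, so its median was bound to shrink. Unstranded counts gave -0.3676 (pericyte). Reversed genes were COL1A1 -0.8239, COL3A1 -0.01481, ELN -0.363, HAS2 -0.9231, LOX -0.6187 and NCAM1 -0.9942 in left folds, COL1A1 -1.081, COL3A1 -0.7941, ELN -0.1321, FN1 -0.1968, LOX -0.5624 and MMP1 -0.1661 with the covariate, and HAS2 at -0.03957 with the block and -0.02984 unstranded. Leaving out each animal gave -0.4366 to -0.3011 (pericyte), -0.4209 to 0.6339 (fibrillar collagens), -0.2589 to 0.1618 (proteases), -0.3061 to 1.277 (neutrophil), -0.1653 to 0.3084 (matricellular), -0.2984 to 0.2691 (osteoclast), -0.5778 to 0.1317 (fibroblast), -0.4421 to 0.1402 (elastic fibre), -0.4209 to 0.5972 (COL1A1), -0.4128 to 0.3666 (HAS2) and -0.2251 to 0.5639 (LOX).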

Other observations

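Some genes were near 0 in both folds of some animals and well above it in both folds of the others. Levels here are CPM without TMM factors, and the genes were picked after their values were seen. Reads that map to several places are not counted, so a level near 0 says how many reads were assigned to the gene, not that it was silent; which holds here was not tested. PDCD5 had 0 to 0.0389 in the 4 folds of VFLP (man) animals 1 and 2, 4.31 and 5.22 in animal 3, and 3.53 to 10.5 in Col1 folds. Its neighbour in the RefSeq names, ANKRD27, had 0.925 to 1.36 in those 4 folds, 9.71 and 9.95 in animal 3, and 13.4 to 25.4 in Col1 folds. LDHA, the muscle subunit of lactate dehydrogenase, had 65.1 and 110 in VFLP (man) animal 2 and at most 0.603 in the other 10 libraries of both groups; 1 VFLP (au) animal had 152 and 192. NDUFB9, a subunit of respiratory complex I, was at most 0.0777 in VFLP (man) animals 2 and 3, 27.5 and 31.5 in animal 1, and 57.7 to 77.0 in Col1 folds. With limits of under 0.1 and at least 2 in both folds of every animal, 32 entries behaved this way in the 6 animals, 9 of them without a LOC number. In 1 of the 32 the split followed the groups, on in VFLP (man) and off in Col1, and in 0 the reverse.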
